A study of Mus musculus with 8 samples.

Results

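The soleus is a mouse hindlimb muscle rich in slow oxidative fibres, and 44 genes of glucose uptake, glycolysis, lactate and glycogen metabolism were followed in it by RNA sequencing. The genes were chosen by name from the pathway, with earlier results of these data known, and all 44 were among the 24033 genes of the deposited table. The 4 K15-SKO mice carried Myogenin-Cre/+ together with the floxed allele K15F/F, and the 4 MyoCre controls carried Myogenin-Cre/+ alone, so both groups expressed the Cre recombinase. All mice were 2 months old. Cre driven from the myogenin gene acts in differentiating muscle cells, so that vessel, nerve, fat and connective tissue cells of the same muscle keep Klf15. The question is how these genes differ when the Kruppel-like transcription factor KLF15, known for its control of fuel use in muscle and liver, is deleted in muscle.

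Muscle takes up glucose through membrane transporters, traps it by phosphorylation and splits it to pyruvate, which either enters mitochondria or is reduced to lactate. Glycogen is the store beside this pathway, built from glucose units and taken down again by a phosphorylase. Fast fibres hold more of the glycolytic enzymes and slow fibres more of the mitochondrial ones, and many steps have a muscle form and a widely expressed form encoded by separate genes.

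Values are FPKM, fragments scaled to transcript length and to the total of the library. Klf15 had 15.7, 19.3, 16.7 and 13.1 FPKM in K15-SKO muscle, against 44.5, 49.8, 49.1 and 22.8 FPKM in MyoCre muscle, a log2 fold change of -1.28 (SE 0.25, limma adjusted p = 0.0315). Both fast and slow fibre markers were abundant, the fast list summing to between 6663 and 16828 FPKM in K15-SKO and 7917 to 17945 FPKM in MyoCre libraries, and the slow list to between 10778 and 20338 FPKM in K15-SKO and 11182 to 19158 FPKM in MyoCre libraries. K15-SKO replicate 3 stood apart. Its scaling factor by the median-of-ratios method was 0.80, against 0.96 to 1.16 in the other libraries, and its erythroid markers summed to 2037 FPKM, against 320.5 to 578 FPKM in the other K15-SKO libraries and 284 to 459 FPKM in the MyoCre libraries. Of the genes of 10 marker lists, for fibre types and for other cells of muscle, 0 were called. The macrophage and leukocyte list, at 11.6 to 20.68 FPKM in K15-SKO and 20.74 to 23.2 FPKM in MyoCre libraries, was the one whose sums did not overlap. MyoCre replicate 2 was the only library with values for Y-linked genes, which averaged 16.2 FPKM, and the only one with Xist near 0. By these genes it came from a male and the other libraries from females, so sex was not balanced between the genotypes. The part of sex in the comparison was not tested. The FPKM sums ran from 519884 to 652275. A step taken to mark 1 fragment could be read from the lowest values of 5 libraries. If it does mark 1 fragment, which was not tested, these libraries held 8130000 to 22400000 fragments, the most in MyoCre replicate 2. In the other 3 libraries no such step stood out, and their depth is unknown.

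None of the 42 members tested differed past adjusted p 0.05, in either direction. Of all 12535 genes tested 69 did, or 0.55%, with 23 lower (0.183%) and 46 higher (0.367%) in K15-SKO muscle. Each of these 46 has a 0 in all 4 MyoCre libraries, among them Acta1, the skeletal muscle actin, so such a 0 cannot be read as absence. The test was limma on log2(FPKM + 0.5), and a gene entered it when its 8 libraries averaged 1 FPKM or more. At unadjusted p under 0.05 there were 4 members, against 4.33% of all genes, and they were Stbd1, which was higher in K15-SKO muscle on average, and Ldhd, Ldhb and Pfkfb1, which averaged lower. In none of the 42 did the libraries of the genotypes separate without overlap, which 3.35% of all tested genes did. The median log2 fold change was -0.12 both over the members and over all genes, and 40 of the 42 lay within 0.5 of that median. A log2 fold change relative to the median of all genes is called relative below. The mice were separate animals per the design, and the p-values measure the spread between them.

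**Figure D1:**
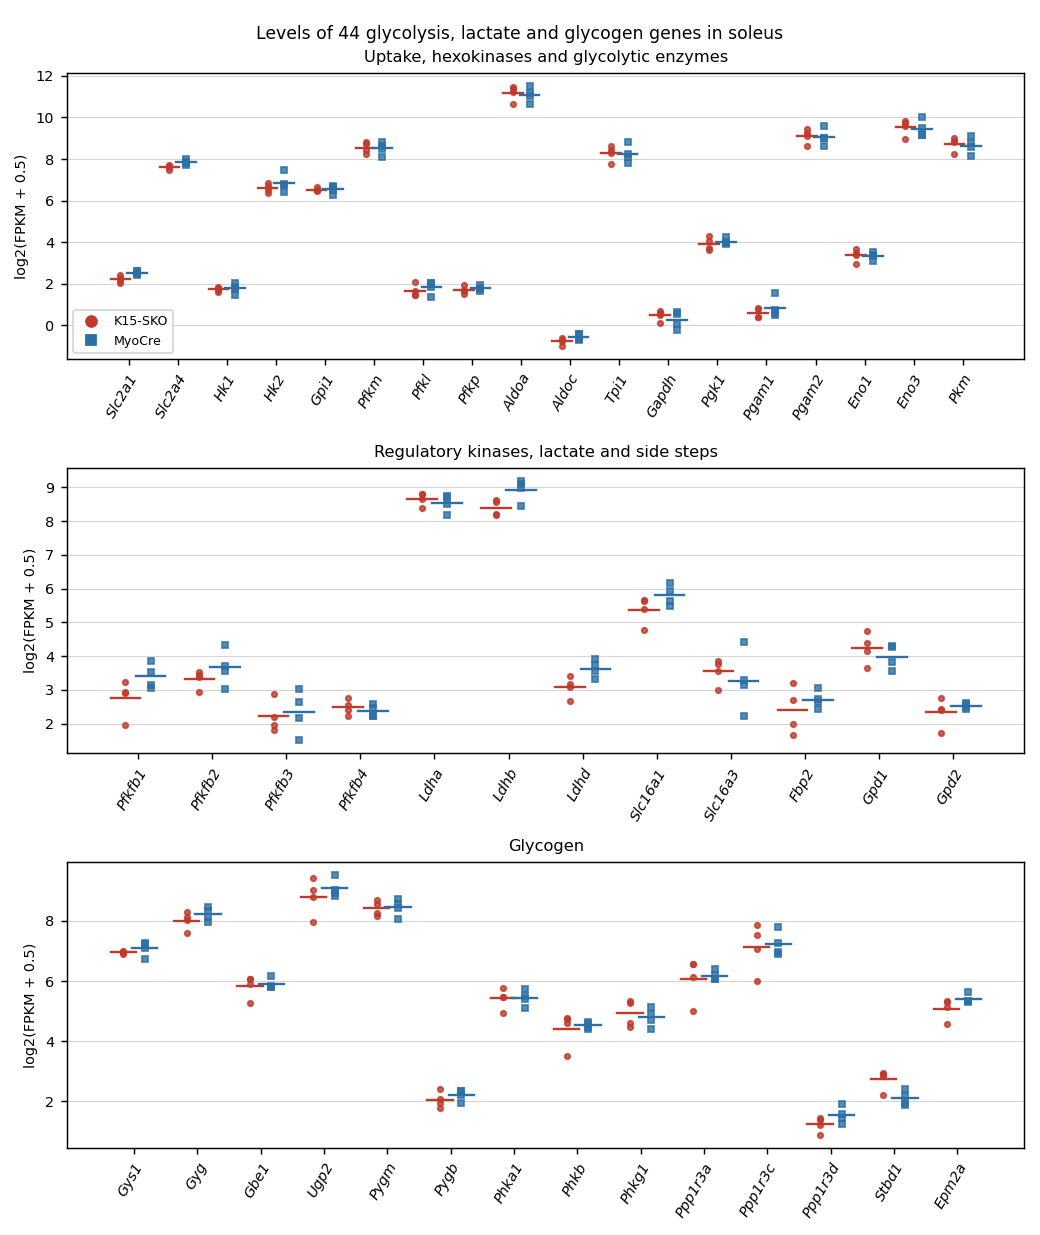
Level of each of the 44 genes, as log2(FPKM + 0.5), in the 4 K15-SKO libraries (red circles) and the 4 MyoCre libraries (blue squares), with short lines at the group means. In the listed values the muscle forms of the glycolytic enzymes lie far above the other forms. Of these other forms Eno1 and Pgam1 have near-identical annotated copies, so their levels are uncertain. In each tested gene the libraries of both genotypes overlap.

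**Figure D2:**
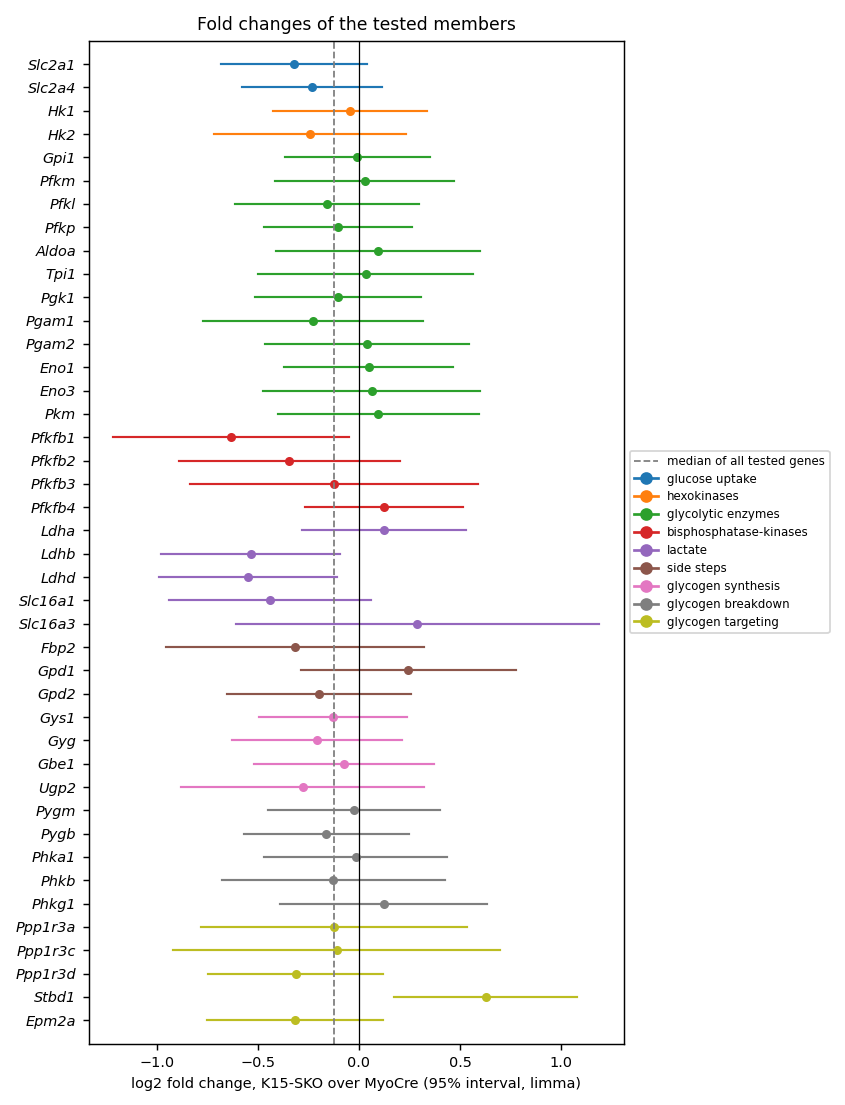
Log2 fold change, K15-SKO over MyoCre, of the 42 members tested, with 95% intervals from limma, coloured by step. The dashed line is the median of all tested genes, -0.12; the intervals of Stbd1, Ldhb, Ldhd and Pfkfb1 leave out 0, and none of the 42 passed adjusted p 0.05.

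Upstream sequences are shown for the 3 genes with the smallest p, Stbd1, Ldhd and Ldhb, and for Ldha, the counterpart of Ldhb in the ratio described below. Each is the 250 bases before the transcription start in RefSeq (GRCm38.p6), written 5′ to 3′ on the gene's strand. Capitals mark matches to CCNCNCCC or its reverse complement, a pattern of the kind bound by Kruppel-like factors.
Stbd1 (chr5:92602801-92603050, plus strand): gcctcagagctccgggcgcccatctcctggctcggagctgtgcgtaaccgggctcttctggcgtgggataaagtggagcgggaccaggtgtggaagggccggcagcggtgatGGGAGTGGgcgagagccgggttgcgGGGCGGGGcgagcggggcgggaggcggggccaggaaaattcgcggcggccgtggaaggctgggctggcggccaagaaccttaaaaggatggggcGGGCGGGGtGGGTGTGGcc
Ldhd (chr8:111630337-111630586, minus strand): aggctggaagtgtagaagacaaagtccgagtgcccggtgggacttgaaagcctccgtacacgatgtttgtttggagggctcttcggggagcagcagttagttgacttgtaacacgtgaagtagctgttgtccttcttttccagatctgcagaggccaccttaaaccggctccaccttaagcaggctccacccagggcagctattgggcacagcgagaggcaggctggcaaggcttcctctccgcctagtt
Ldhb (chr6:142507958-142508207, minus strand): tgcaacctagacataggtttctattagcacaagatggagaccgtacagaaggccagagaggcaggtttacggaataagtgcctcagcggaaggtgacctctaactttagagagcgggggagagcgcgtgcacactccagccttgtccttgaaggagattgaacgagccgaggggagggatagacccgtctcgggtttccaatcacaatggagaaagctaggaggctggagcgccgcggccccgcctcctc
Ldha, upstream start (chr7:46845554-46845803, plus strand): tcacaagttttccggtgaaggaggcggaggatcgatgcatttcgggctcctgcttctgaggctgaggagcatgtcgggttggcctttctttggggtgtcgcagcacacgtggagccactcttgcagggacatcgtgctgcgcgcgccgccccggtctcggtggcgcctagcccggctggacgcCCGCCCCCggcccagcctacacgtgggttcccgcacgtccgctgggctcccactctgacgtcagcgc
Ldha, downstream start (chr7:46846832-46847081, plus strand): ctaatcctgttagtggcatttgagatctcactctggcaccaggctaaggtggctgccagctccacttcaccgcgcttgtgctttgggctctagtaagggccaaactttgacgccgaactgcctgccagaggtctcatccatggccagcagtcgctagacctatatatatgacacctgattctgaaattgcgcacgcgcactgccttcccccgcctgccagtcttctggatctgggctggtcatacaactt

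Stbd1 had 4 matches to this pattern in its window, Ldhd and Ldhb had 0, and Ldha had 1 before its upstream start and 0 before its downstream start. RefSeq windows were found for 42 of the 44 genes, with 61 starts in all, and 42 of the 61 windows held the pattern (68.9%), against 45.9% of 32851 windows of all genes. The shorter CACCC was found on either strand in 39 of the 61 windows (63.9%), against 52.0% of all windows. The core ACGTG, the kind of element bound by the hypoxia-inducible factors that are known regulators of glycolytic genes, was found in 25 of the 61 windows (41.0%), against 16.6% of all windows. The upstream Ldha window held 5 such matches, counted on both strands, so that a palindromic site counts on each. G and C made up 36.4% to 79.2% of the 61 windows, and 71.2% of the Stbd1 window. Their share in the windows of all genes was not measured, so the part of base content in these differences was not tested. Windows of the same gene can overlap, as for Eno1, Aldoa and Pfkm, so some matches count more than once. A CACCC match can lie within a CCNCNCCC match, and matches are letters, not measured binding.

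Glucose uptake and trapping gave no called gene among 4 tested. Slc2a4, the insulin-responsive glucose transporter of muscle, had 212, 203, 194 and 176 FPKM in K15-SKO muscle, against 226, 233, 253 and 209 FPKM in MyoCre muscle. All but 1 of the K15-SKO libraries lay below every MyoCre library, and the highest K15-SKO value lay just above the lowest MyoCre value. The log2 fold change was -0.23 (SE 0.16, adjusted p = 0.957), or -0.11 relative, and -0.05 relative without K15-SKO replicate 4. Slc2a1, the basal transporter that endothelial cells also carry, had 3.92, 4.28, 3.54 and 4.90 FPKM in K15-SKO muscle, against 5.03, 5.59, 4.88 and 5.72 FPKM in MyoCre muscle. Here too the overlap came from a single pair of libraries, and the log2 fold change was -0.32 (SE 0.17, adjusted p = 0.957). Endothelial markers summed to between 157 and 225 FPKM in K15-SKO and 135 to 182 FPKM in MyoCre libraries. All 7 of them had a fold change above the median of all genes, with 0 called. That median was -0.12, and 6 of the 7 log2 fold changes lay above 0. Tek had -0.10 and Kdr 0.00. Cdh5, at 29.1 to 31.8 FPKM in K15-SKO and 18.3 to 27.1 FPKM in MyoCre libraries, did not overlap. In this direction 0.63% of all tested genes did not overlap. The part of endothelial cells in the Slc2a1 values was not tested. In bulk muscle, fewer cells of a type and less RNA per cell cannot be told apart.

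The hexokinases phosphorylate glucose on entry. Hk2, the muscle form, averaged 98.7 ± 14.6 FPKM in K15-SKO and 120.1 ± 38.9 FPKM in MyoCre muscle (SD, n = 4 each), with MyoCre replicate 2 alone at 176 FPKM. Hk1, the widely expressed form, averaged 2.84 ± 0.23 FPKM in K15-SKO and 2.98 ± 0.575 FPKM in MyoCre muscle. Without MyoCre replicate 2 the relative log2 fold change of Hk2 was 0.08, against -0.12 with it, so that library decides its sign.

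For the glycolytic enzymes themselves no difference between the genotypes was detected, which does not show them to be equal. Of 14 genes 12 were tested, 0 were called, and their log2 fold changes ran from -0.23 to 0.10, with a median of 0.03, or 0.15 relative. That relative median was 0.05 without K15-SKO replicate 3 and likewise without MyoCre replicate 4, 0.29 without K15-SKO replicate 4 and 0.24 without MyoCre replicate 2. Aldoa, the muscle aldolase and the most abundant member, had 2846, 2641, 2375 and 1609.7 FPKM in K15-SKO muscle, against 2065, 2906, 2310.0 and 1596 FPKM in MyoCre muscle. The groups overlapped over nearly their whole range, and the log2 fold change was 0.09 (SE 0.23, adjusted p = 0.964) with a 95% interval from -0.41 to 0.60. Eno3, the muscle enolase, had 857, 911, 766 and 493 FPKM in K15-SKO muscle, against 566, 1053, 726 and 574 FPKM in MyoCre muscle (log2 fold change 0.06, SE 0.25, adjusted p = 0.978, interval -0.47 to 0.60). The highest value was in a MyoCre library and the lowest in a K15-SKO library. Pgam2, the muscle phosphoglycerate mutase, had 605, 693, 551 and 389 FPKM in K15-SKO muscle, against 514, 758, 518 and 398 FPKM in MyoCre muscle (log2 fold change 0.04, SE 0.23, adjusted p = 0.988, interval -0.46 to 0.54). Pkm, pyruvate kinase of the last step, had 470.2, 511, 445 and 306 FPKM in K15-SKO muscle, against 377, 543, 436 and 279.9 FPKM in MyoCre muscle (log2 fold change 0.10, SE 0.23, adjusted p = 0.962, interval -0.40 to 0.59). In each of these genes the lowest K15-SKO value was in replicate 4. Pfkm, the muscle phosphofructokinase that controls entry into the pathway, averaged 378 ± 67.9 FPKM in K15-SKO and 373 ± 75.7 FPKM in MyoCre muscle (SD, n = 4 each). Tpi1, the triose phosphate isomerase, averaged 319.5 ± 78.5 FPKM in K15-SKO and 315 ± 101 FPKM in MyoCre muscle. Gpi1, the phosphoglucose isomerase, averaged 92.2 ± 5.52 FPKM in K15-SKO and 93.2 ± 12.3 FPKM in MyoCre muscle. With 4 mice a group, differences inside these intervals are not excluded.

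Forms that other tissues use were low. Pfkl and Pfkp, the liver-type and platelet-type phosphofructokinases, averaged 2.73 and 2.75 FPKM in K15-SKO and 3.10 and 2.97 FPKM in MyoCre muscle. Eno1, the widely expressed enolase, averaged 10.1 FPKM in K15-SKO and 9.64 FPKM in MyoCre muscle, and Pgam1, the widely expressed mutase, averaged 1.04 FPKM in K15-SKO and 1.38 FPKM in MyoCre muscle. Pgk1 is not such a form, being the only phosphoglycerate kinase among the members. It averaged 14.9 FPKM in K15-SKO and 15.9 FPKM in MyoCre muscle. The annotation holds 4 pseudogenes nearly identical to it, with 1 of them in the table, at 0.23 to 0.81 FPKM. Its value therefore needs the same care as that of Gapdh, described next. Aldoc, the brain-type aldolase, was listed at 0 in K15-SKO replicate 3 and at 0.26 FPKM or less in every library.

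Gapdh, the dehydrogenase of the middle of the pathway, had 0.587, 1.111, 1.006 and 0.902 FPKM in K15-SKO muscle, against 0.964, 1.04, 0.342 and 0.529 FPKM in MyoCre muscle. Tpi1, the enzyme before it in the pathway, had at least 214 FPKM in every library. The annotation holds 95 pseudogenes that match Gapdh transcripts over at least 300 bases at 95% identity or more, and the 75 of them in the table summed to between 6.11 and 12.95 FPKM per library. The value therefore cannot be read as the level of Gapdh, and it was below the filter. Near-identical copies were annotated for 9 members in all. The Gpi1 copy Gm1840 held 31.7% to 38.0% of the summed value of gene and copy, the Pgam1 copy Pgam1-ps2 55.1% to 75.2%, and the Eno1 copy Gm4735 20.9% to 28.3%. For Tpi1 and Pkm the copies held 9.56% to 13.2% and 8.37% to 10.1%. The sources used here do not say how reads that match several places were counted. Gapdh and its copies together stayed far below Tpi1 in every library, and the reason was not tested. These shares are therefore not taken to bound the uncertainty of the levels.

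The glycolytic enzymes varied between libraries together, within both genotypes. K15-SKO replicate 4 was the lowest K15-SKO library for 10 of the 12 tested enzymes, and MyoCre replicate 4 the lowest MyoCre library for 9. MyoCre replicate 2 was the highest of its group for 10 of 12, and K15-SKO replicate 2 of its group for 7. Over all tested genes K15-SKO replicate 4 was the lowest of its genotype for 27.3% and MyoCre replicate 4 for 45.2%, while MyoCre replicate 2 was the highest for 26.7% and K15-SKO replicate 2 for 39.5%. The fast fibre marker sum was lowest in the same libraries, at 6663 FPKM in K15-SKO replicate 4 and 7917 FPKM in MyoCre replicate 4. It was highest in K15-SKO replicate 2 at 16828 FPKM and MyoCre replicate 2 at 17945 FPKM. Among K15-SKO libraries Myh1, Tnnt3, Tnni2, Tnnc2, Mylpf and Atp2a1 were lowest in replicate 4. Myh4, Actn3, Mybpc2 and Pvalb were instead lowest in K15-SKO replicate 3. Among MyoCre libraries these last were lowest in replicate 3 or, for Mybpc2, in replicate 1. The slow fibre sum was also low in K15-SKO replicate 4 (12173 FPKM) and MyoCre replicate 4 (11182 FPKM) and high in K15-SKO replicate 2 (20338 FPKM), but it was lowest among K15-SKO libraries in replicate 3 (10778 FPKM) and stood at 15619 FPKM in MyoCre replicate 2, below MyoCre replicates 1 and 3. For Aldoa, Eno3, Pgam2, Pkm, Pfkm, Tpi1 and Gpi1 the SD within each genotype exceeded the difference between the genotype means. The parts of fibre content, of sex and of any handling shared by same-numbered libraries were not tested, in this pattern or in the comparison. Of the 10 fast fibre genes 0 were called (adjusted p = 0.957 or above), 6 had a log2 fold change above 0 and 4 below 0, and their median was 0.03. The values ran from -0.18 for Tnnt3 to 2.23 for Myh4, the myosin of the fastest fibres, which had 285, 84.8, 11.02 and 133 FPKM in K15-SKO muscle, against 12.2, 66.7, 3.48 and 22.5 FPKM in MyoCre muscle.

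**Figure D3:**
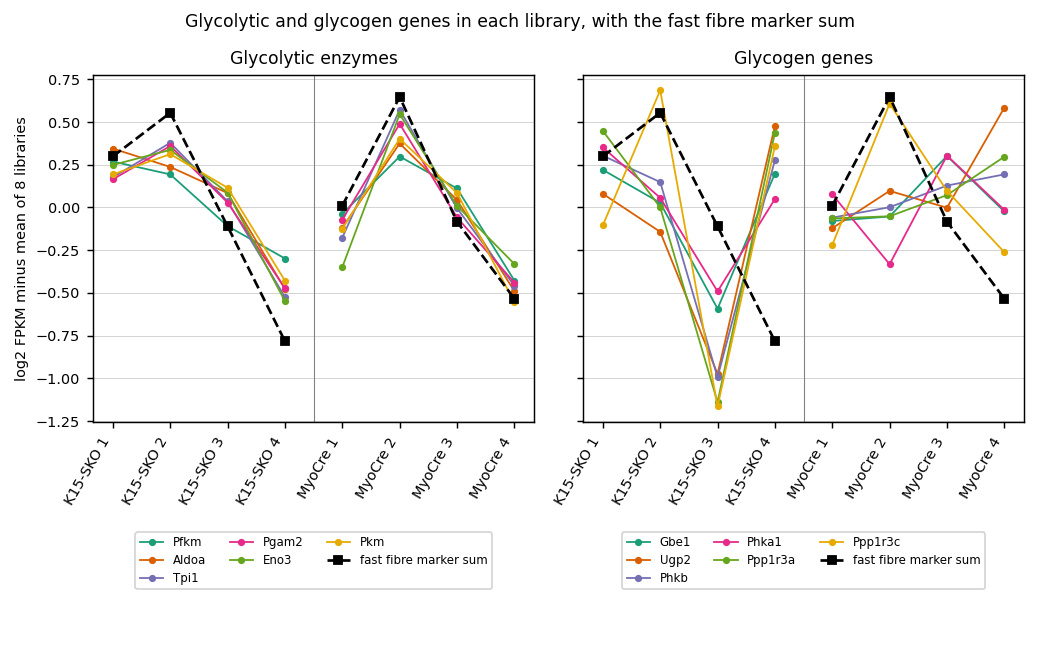
Log2 FPKM of 6 glycolytic enzymes (left) and 6 glycogen genes (right) in each library, each minus its mean over the 8 libraries, with the summed fast fibre markers as black squares. Lines only join the values of a gene, since the libraries have no order, and the genes were picked after their values were seen. All 6 enzymes are lowest among K15-SKO libraries in replicate 4 and highest among MyoCre libraries in replicate 2, as is the marker sum. They do not follow the sum throughout. In MyoCre replicate 1 all 6 are lower than in replicate 3, where the sum is lower. Some fast fibre genes do not follow the sum either. The 6 glycogen genes drawn are lowest among K15-SKO libraries in replicate 3. So were 8 of all 14 glycogen genes and 55.1% of all tested genes.

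Pfkfb1 to Pfkfb4 make or remove the fructose bisphosphate that activates phosphofructokinase. Pfkfb1, the form known from liver and muscle, had 7.23, 8.96, 7.05 and 3.40 FPKM in K15-SKO muscle, against 8.41, 7.85, 13.9 and 11.1 FPKM in MyoCre muscle. Only K15-SKO replicate 2 lay above the lowest MyoCre libraries, and the log2 fold change was -0.63 (SE 0.27, adjusted p = 0.957). The relative value of -0.51 was -0.24 without K15-SKO replicate 4. Pfkfb2, the form known from heart, had 9.998, 10.4, 7.10 and 11.1 FPKM in K15-SKO muscle, against 7.73, 19.8, 11.4 and 12.7 FPKM in MyoCre muscle. Its log2 fold change of -0.34 (SE 0.25, adjusted p = 0.957) rested on MyoCre replicate 2, without which the relative value was 0.00, against -0.22 with it. Pfkfb3 and Pfkfb4, the inducible form and the testis-type form, averaged 4.34 and 5.19 FPKM in K15-SKO and 4.93 and 4.71 FPKM in MyoCre muscle.

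In lactate metabolism 3 genes had lower averages in K15-SKO muscle and 2 had higher ones, and 0 of the 5 passed the test. Ldhb, the dehydrogenase subunit that predominates in oxidative fibres and heart, had 379, 396, 291 and 296 FPKM in K15-SKO muscle, against 546, 510.1, 589.6 and 349.6 FPKM in MyoCre muscle. MyoCre replicate 4 was the library that fell into the K15-SKO range. Ldhb stood at 68.3% of the MyoCre mean, with a log2 fold change of -0.54 (SE 0.20, unadjusted p = 0.0210, adjusted p = 0.890 in limma). Its annotated copy Gm5514, on chromosome 19, had 53.0 to 69.99 FPKM in K15-SKO and 72.9 to 97.4 FPKM in MyoCre libraries, and took 12.3% to 17.2% of the sum. Since reads can match both, the copy is no separate evidence.

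Ldha, the subunit that predominates in fast fibres, had 406, 443, 448 and 333 FPKM in K15-SKO muscle, against 290.4, 422, 432 and 361 FPKM in MyoCre muscle (log2 fold change 0.12, SE 0.19, adjusted p = 0.957). The ranges overlapped widely. Ldha and Ldhb together summed to 748 ± 89.3 FPKM in K15-SKO and 875 ± 133 FPKM in MyoCre muscle (SD, n = 4 each). Ldhd, the mitochondrial dehydrogenase of D-lactate, had 8.03, 10.1, 8.44 and 5.84 FPKM in K15-SKO muscle, against 11.3, 14.7, 12.7 and 9.41 FPKM in MyoCre muscle. K15-SKO replicate 2 was the only K15-SKO library above the lowest MyoCre library. Ldhd stood at 67.4% of the MyoCre mean (log2 fold change -0.55, SE 0.20, unadjusted p = 0.0184, adjusted p = 0.876 in limma), and its relative value of -0.42 was -0.28 without K15-SKO replicate 4. Of its exonic bases 42.2% overlap the gene Znrf1, and without a stated strand setting their reads cannot be told apart.

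The lactate transporters Slc16a1 and Slc16a3 carry lactate with a proton, the first known for uptake in oxidative fibres and the second for release from glycolytic ones. Slc16a1 had 49.6, 41.99, 26.6 and 50.4 FPKM in K15-SKO muscle, against 44.8, 49.3, 60.9 and 71.9 FPKM in MyoCre muscle. The lowest value was in K15-SKO replicate 3, and the log2 fold change was -0.44 (SE 0.23, adjusted p = 0.957). The relative value of -0.32 was -0.20 without K15-SKO replicate 3, -0.17 without MyoCre replicate 4 and -0.07 with library weights. Slc16a3 ranged from 7.54 to 13.99 FPKM in K15-SKO and from 4.18 to 20.7 FPKM in MyoCre muscle, so that the MyoCre range enclosed the K15-SKO range.

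Ratios of a muscle form to its widely expressed form, or of the fast to the slow counterpart, were compared within each library, where library scaling cancels. Of 10 pairs, 9 had values above 0 in every library, and Ldha to Ldhb was the pair whose libraries did not overlap. The ratio was 1.07, 1.12, 1.54 and 1.12 in K15-SKO muscle, against 0.532, 0.827, 0.732 and 1.03 in MyoCre muscle. All 4 K15-SKO libraries lay above 1 and 3 of 4 MyoCre libraries below it. The mean log2 ratio was 0.26 ± 0.24 in K15-SKO and -0.40 ± 0.40 in MyoCre muscle (SD, n = 4 each). The difference of 0.66 gave p = 0.0286 in a two-sided exact permutation test, the smallest p that 70 assignments allow, and 0.257 after Benjamini-Hochberg adjustment over the 9 pairs, which does not pass 0.05. The share of all genes whose libraries separate, 3.35%, is for single genes and not for ratios. With the annotated copies added to both genes, an alternative chosen after the data were seen, the difference was 0.65 with the same exact permutation p.

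In the other 8 pairs the ranges overlapped. Slc16a3 to Slc16a1 had a mean log2 ratio of -1.87 ± 0.65 in K15-SKO and -2.63 ± 0.96 in MyoCre muscle (exact permutation p = 0.229, n = 4 each). Gpd1 to Gpd2, the cytosolic and mitochondrial glycerol phosphate dehydrogenases, had 2.02 ± 0.53 in K15-SKO and 1.54 ± 0.33 in MyoCre muscle (exact permutation p = 0.143, n = 4 each). Pgam2 to Pgam1 had 9.07 ± 0.32 in K15-SKO and 8.72 ± 0.31 in MyoCre muscle (exact permutation p = 0.143, n = 4 each), with Pgam1 near the filter. Differences between genotypes in the other 5 pairs, Slc2a4 to Slc2a1, Hk2 to Hk1, Pfkm to Pfkl, Eno3 to Eno1 and Pygm to Pygb, ran from -0.19 to 0.21 on the log2 scale. As levels, the muscle form exceeded the other form by 30.0-fold to 48.4-fold for Hk2 over Hk1 and by 35.8-fold to 54.9-fold for Slc2a4 over Slc2a1 across the 8 libraries. For Pfkm over Pfkl, Eno3 over Eno1, Pygm over Pygb and Pgam2 over Pgam1 it was at least 59.4-fold in every library. Eno1 and Pgam1 have near-identical annotated copies and Eno3 and Pgam2 have 0. If reads of Eno1 and Pgam1 were lost to copies, the folds over them are too high by an unknown amount.

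**Figure D4:**
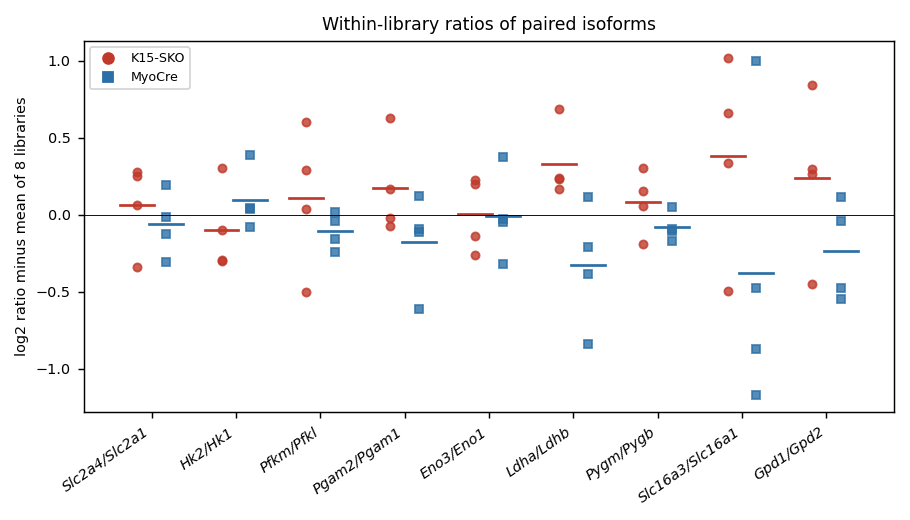
Log2 ratio within each library of 9 pairs of related genes, minus the mean over the 8 libraries, for K15-SKO (red circles) and MyoCre (blue squares), with lines at the group means. Ldha/Ldhb is the pair in which every K15-SKO library lies above every MyoCre library; its adjusted p was 0.257.

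Among the side steps, Fbp2, the muscle fructose bisphosphatase, averaged 5.22 ± 2.72 FPKM in K15-SKO and 6.14 ± 1.23 FPKM in MyoCre muscle (SD, n = 4 each). Gpd1 averaged 19.0 ± 5.96 FPKM in K15-SKO and 15.7 ± 3.797 FPKM in MyoCre muscle, and Gpd2 averaged 4.70 ± 1.41 and 5.28 ± 0.348 FPKM in K15-SKO and MyoCre muscle. None of the 3 was called.

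Glycogen genes were 14, all tested and 0 called, with a median relative log2 fold change of 0.00, 6 above the median of all genes and 8 below it. K15-SKO replicate 3 was the lowest K15-SKO library for 8 of the 14 genes, and for 55.1% of all tested genes. Without it the median of the 14 was 0.10 relative, with 9 above and 5 below. Median-of-ratios scaling and a pseudocount of 0.1 also gave 9 above and 5 below, with medians of 0.01, so the median lies too near 0 to give the group a side. Long transcripts were also lower in that library. Over all tested genes with an annotated length, 1632 genes with transcripts of at least 6000 bases had a median 0.31 below that of genes under 2000 bases, on the log2 scale, when each was measured as its deviation from the other K15-SKO libraries. The same difference was 0.29 upward in K15-SKO replicate 4. The part of transcript length in the glycogen values was not tested.

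Glycogen synthesis starts from UDP-glucose. Ugp2, which makes it, was the most abundant glycogen gene, with 519, 445, 249.8 and 684 FPKM in K15-SKO muscle, against 451, 525, 490.4 and 736 FPKM in MyoCre muscle. Replicate 3 was the lowest of the K15-SKO libraries and replicate 4 the highest of both groups (log2 fold change -0.28, SE 0.28, adjusted p = 0.957). The relative value of -0.15 was 0.03 without K15-SKO replicate 3 and 0.02 without MyoCre replicate 4. Gys1, the glycogen synthase of muscle, averaged 124 ± 3.94 FPKM in K15-SKO and 136 ± 21.1 FPKM in MyoCre muscle. Gyg, the primer glycogenin, averaged 260.1 ± 49.9 FPKM in K15-SKO and 298 ± 45.4 FPKM in MyoCre muscle. Gbe1, the branching enzyme, averaged 57.6 ± 13.4 FPKM in K15-SKO and 59.5 ± 7.77 FPKM in MyoCre muscle.

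In glycogen breakdown, Pygm, the muscle phosphorylase, averaged 345 ± 58.3 FPKM in K15-SKO and 353 ± 66.2 FPKM in MyoCre muscle (SD, n = 4 each), and Pygb, the brain-type phosphorylase, 3.71 ± 0.835 FPKM in K15-SKO and 4.17 ± 0.564 FPKM in MyoCre muscle. Of the kinase that activates phosphorylase, the regulatory subunits Phka1 and Phkb averaged 43.2 and 21.8 FPKM in K15-SKO and 43.3 and 22.6 FPKM in MyoCre muscle, and the catalytic subunit Phkg1 30.9 FPKM in K15-SKO and 27.8 FPKM in MyoCre muscle. Phkb had 10.8 FPKM in K15-SKO replicate 3, against 20.6 to 26.5 FPKM in the other 7 libraries.

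Stbd1, which binds glycogen and anchors it to membranes for its delivery to lysosomes, had the smallest p of the 42. It had 7.26, 7.08, 6.68 and 4.08 FPKM in K15-SKO muscle, against 3.17, 4.02, 4.80 and 3.37 FPKM in MyoCre muscle. All but replicate 4 of the K15-SKO libraries lay above every MyoCre library. It stood at 163% of the MyoCre mean, with a log2 fold change of 0.63 (SE 0.21), or 0.75 relative, and in limma an unadjusted p of 0.0104 and an adjusted p of 0.695. The call depended on how libraries were weighted. Library weights were highest for K15-SKO replicate 1 (4.64) and MyoCre replicate 1 (2.285), which held the highest and the lowest Stbd1 value. K15-SKO replicate 3 had a weight of 0.20. With these weights 157 of 12535 genes passed. Stbd1 was among them (adjusted p = 0.0257 in limma), the only one of the members to pass in any of 19 alternative fits. Over these alternatives its adjusted p ran from 0.0257 to 0.980, and its relative log2 fold change from 0.62 to 0.93. Stbd1 lies on the plus strand of chromosome 5, from 92603041 to 92606579 in mm10, and its exons overlap 0 other annotated genes.

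Ppp1r3a, Ppp1r3c and Ppp1r3d encode subunits that bring protein phosphatase to glycogen. Ppp1r3d, the lowest of them, had 1.83, 1.35, 2.21 and 2.13 FPKM in K15-SKO muscle, against 2.51, 1.86, 2.25 and 3.25 FPKM in MyoCre muscle (log2 fold change -0.31, SE 0.20, adjusted p = 0.957). The relative value of -0.19 was -0.03 without K15-SKO replicate 2 and -0.04 without MyoCre replicate 4. Ppp1r3a and Ppp1r3c averaged 71.9 and 153 FPKM in K15-SKO and 72.4 and 154 FPKM in MyoCre muscle. In K15-SKO replicate 3 they had 31.3 and 64.2 FPKM, the lowest of all 8 libraries for both. Epm2a, the glycogen phosphatase laforin, had 39.8, 38.8, 23.0 and 35.1 FPKM in K15-SKO muscle, against 39.9, 39.7, 49.7 and 38.6 FPKM in MyoCre muscle (log2 fold change -0.32, SE 0.20, adjusted p = 0.957). K15-SKO replicate 3 was the lowest of the 8 libraries, and MyoCre replicate 3 stood above the rest. The relative value of -0.19 was -0.10 without K15-SKO replicate 3.

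Of 51 further genes of glucose and glycogen metabolism, 41 were tested, 0 passed adjusted p 0.05 and 2 had an unadjusted p under 0.05 in limma. Pcx, the pyruvate carboxylase that refills the citric acid cycle, had 6.12, 6.41, 5.16 and 4.69 FPKM in K15-SKO muscle, against 9.94, 8.23, 9.47 and 6.81 FPKM in MyoCre muscle. Its groups did not overlap, as was the case for 2.72% of all tested genes in this direction, and the log2 fold change was -0.58 (SE 0.18, unadjusted p = 0.00749, adjusted p = 0.588). Adpgk, which phosphorylates glucose with ADP, averaged 3.71 FPKM in K15-SKO and 4.93 FPKM in MyoCre muscle, and Tbc1d4, which holds back the insulin-responsive transporter inside the cell, 13.8 FPKM in K15-SKO and 18.8 FPKM in MyoCre muscle, each with an adjusted p of 0.957. The median log2 fold change of the 41 was -0.13, or -0.01 relative.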

How the data were processed

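RNA was measured in 8 soleus libraries, 4 K15-SKO and 4 MyoCre. The authors deposited 1 table of FPKM values made, per the submitters' processing notes, with STAR, Cufflinks and Cuffdiff on mm10; the unit was inferred, since the header names only samples. Not given in the sources used here are tool versions, annotation release, strand setting and filters. The table holds 0 further columns of values.

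Log2(FPKM + 0.5) was fitted in limma 3.58.1 (R 4.3.3) on the genotype alone, with trend and robust variance, for the 12535 genes whose 8 libraries averaged 1 FPKM or more, and Benjamini-Hochberg adjustment of the two-sided p-values ran over all of them. These fold changes understate the change of low genes. Ratios within libraries were tested by exact permutation with scipy 1.17.1. Of the table's IDs 23896 matched GENCODE M21, all 44 members among them. Pseudogene copies were found with minimap2 2.31.

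The members, lists and rules were chosen with earlier results of these data known. Named in full were the 10 members with the smallest p, the 6 most abundant, any whose libraries did not overlap, and the 4 genes with the smallest p of 51 pathway genes, of which 1 is not reported here. Myh4, Tnnt3, Cdh5, Tek, Kdr, Acta1, pseudogene copies, and the genes drawn by library were chosen after their values were seen. Alternatives covered the pseudocount, filter, scaling, variance model, library weights, replicate block and leaving out each library. Same-numbered libraries were not treated as pairs.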

Additional observations from a re-analysis of the deposited data

Results flagged for a closer look

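Of 106 groups of 4 values (44 genes and 9 ratios in each genotype), 4 held a value far from the other 3, where chance at 1 in 20 gives 5.3. Gys1 had 118 FPKM in K15-SKO replicate 4, against 125 to 126 in the other K15-SKO libraries. Gbe1 had 71.1 FPKM in MyoCre replicate 3, against 54.6 to 56.8 in the other MyoCre libraries, and Epm2a had 49.7 FPKM there, against 38.6 to 39.9. The log2 ratio of Ldha to Ldhb was 0.62 in K15-SKO replicate 3, against 0.10 to 0.17 in the other K15-SKO libraries. Without that library the ratio differed between K15-SKO and MyoCre muscle by 0.54 on the log2 scale, against 0.66 with it.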

How the results depend on the processing

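Over the whole table the 69 genes past the threshold became 39 with a minimum mean of 5 FPKM, 157 with library weights (101 lower and 56 higher in K15-SKO), and 12 (12 lower, 0 higher) when genes at 0 in every library of 1 genotype were dropped, and 53 to 74 when 1 library was left out. Members past it became 1 (Stbd1) with library weights and were 0 in the other 18 alternative fits; the cause was not tested. With the replicate number as a block 78 genes and 0 members passed. Of the 8 libraries 5 correlated best with their own number, and the highest correlations were 0.28 for number 4 and 0.23 for number 2. Whether same-numbered libraries share handling was not tested. The sample labels do not name them as pairs, and the main fit did not take them as such. Under the block Ldha to Ldhb had p = 0.125, the smallest that exact sign flips allow. Of the 42 tested members 23 stayed on the same side of the median of all genes in each of the alternatives that tested them (19, or 18 for the 10 members outside the fit with a minimum mean of 5 FPKM), and those that changed side lay within 0.22 of it. The Eno3 to Eno1 difference ran from -0.091 (without MyoCre replicate 1) to 0.139 (without MyoCre replicate 2) on the log2 scale when 1 library was left out, and that of Ldha to Ldhb from 0.49 (without MyoCre replicate 1) to 0.81 (without MyoCre replicate 4). Median-of-ratios scaling moved the median log2 fold change of all genes to 0.00, against -0.12. Depth limits the low members. With the step among the lowest values taken as 1 fragment, 1 FPKM in a transcript of 1 kb was 8.13 to 22.4 fragments. That estimate covers the 5 libraries where the step could be read.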
